A study of Mus musculus with 1814 samples.

Results

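A group of 9 genes that act on the uracils and abasic sites left in DNA by activation-induced deaminase (AID) was followed in single germinal center B cells of mice. They are Ung, Tdg, Neil1, Neil3, Apex1, Apex2, Hmces, Polh and Rev1, and were chosen by name, with earlier results of these data known. All 9 were present among the 25125 genes of the combined table of experiments 1 to 4 and among the 15177 genes of the table of experiment 5. Cells had been index-sorted, 1 to a well (1814 wells in all), and their RNA read over its full length by SmartSeq2, which adds no molecular identifiers. The labels gave each cell a sequencing experiment, a Dec status (Dec positive, written Dec+ here, or Dec negative, Dec-), a germinal center zone (dark zone or light zone) and a time or a genotype. In experiment 1, 246 light zone cells were taken at 12 h (80 Dec-, the others Dec+) and 42 Dec+ dark zone cells at 30 h, besides 40 dark zone wells marked PB. Experiments 3 and 4 held Dec+ cells of both zones at 12, 30, 46 and 60 h. Experiment 5 covered 3 genotypes (WT, KO, TA) in Dec+ cells from both zones, with no time. The plates of that experiment are named Ccnd3, but neither the KO nor the TA change is described in the labels, and the meaning of PB is not given. They gave no strain, age or animal, so that cells were summed, and p-values measure only the spread between sums. The 42 dark zone cells of experiment 1 were labelled 30 h, while one column of the deposited cell table gave another time, and the label was used.

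AID converts cytosine to uracil in the immunoglobulin genes of germinal center B cells, which mutate mainly in the dark zone and are selected in the light zone. UNG removes the uracil and leaves an abasic site, which APEX1 or APEX2 can cut on the way to repair or to a strand break. HMCES binds abasic sites in single-stranded DNA by a covalent bond and so shields them, and the polymerases REV1 and Pol eta (gene Polh) copy past damaged bases or abasic sites. TDG, NEIL1 and NEIL3 are further DNA glycosylases, of which TDG acts on thymine or uracil opposite guanine and NEIL1 and NEIL3 on oxidised bases.

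Promoters are shown for the 3 members with the lowest p between zones. They are shown from 250 bases before to 50 after the RefSeq start site (GRCm38.p6, 5′ to 3′ on the gene's strand), and capitals mark matches to the motifs searched. Hmces lies on chromosome 6 (87913935 to 87936629, plus strand, GENCODE M21 on GRCm38) and its promoter window is chr6:87913726-87914025. Neil1 lies on chromosome 9 (57142800 to 57148305, minus strand) with the window chr9:57148256-57148555. Apex1 lies on chromosome 14 (50924968 to 50927139, plus strand) with the window chr14:50924699-50924998.
Hmces: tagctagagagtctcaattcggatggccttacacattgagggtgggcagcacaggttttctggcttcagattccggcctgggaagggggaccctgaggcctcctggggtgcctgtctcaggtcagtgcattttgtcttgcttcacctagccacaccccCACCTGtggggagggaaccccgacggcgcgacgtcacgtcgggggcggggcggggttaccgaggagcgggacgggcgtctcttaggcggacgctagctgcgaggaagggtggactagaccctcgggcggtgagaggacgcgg
Neil1: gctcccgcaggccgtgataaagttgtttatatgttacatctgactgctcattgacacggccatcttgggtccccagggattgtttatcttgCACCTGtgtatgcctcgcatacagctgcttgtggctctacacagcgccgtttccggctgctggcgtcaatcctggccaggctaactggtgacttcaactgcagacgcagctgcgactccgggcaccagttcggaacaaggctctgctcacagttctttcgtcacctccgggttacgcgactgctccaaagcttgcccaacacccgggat
Apex1: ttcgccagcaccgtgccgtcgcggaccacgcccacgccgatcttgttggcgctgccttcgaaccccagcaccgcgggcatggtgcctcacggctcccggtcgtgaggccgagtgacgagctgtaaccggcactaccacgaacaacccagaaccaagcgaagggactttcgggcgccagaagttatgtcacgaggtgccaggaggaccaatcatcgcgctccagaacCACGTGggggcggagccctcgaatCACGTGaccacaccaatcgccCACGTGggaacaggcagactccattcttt
Hmces and Neil1 each held 1 match to CAGGTG, an E protein E-box, both on the opposite strand, at -92 and -159 relative to the start. Apex1 held 3 matches to CACGTG, a MYC-type E-box that reads the same on both strands, at -24, 0 and 21. Of 32851 promoter windows of this length, 20.2% held CAGGTG and 7.15% held CACGTG on either strand. Tdg and Rev1 held 1 CACGTG each and Ung 1 CAGGTG. The motifs TTTGAA (a cell cycle homology region, in 17.9% of windows) and GCGGGAA (an E2F site, in 4.60%) were found in none of the 8 members with a window. Polh and Neil3 held no match to any of the motifs. The motifs do not overlap one another, and a match is a description of the letters alone.

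Counts per kept cell had medians of 417105, 210350, 292109 and 155485 in experiments 1, 3, 4 and 5. The median share of mitochondrial reads was 11.2, 1.41, 4.07 and 7.44%. Over the 17 Dec+ sums of at least 10 cells the 5 germinal center B cell markers summed to between 1154 and 2787 CPM (counts scaled to the same library total), the 5 myeloid markers to at most 558 and the 7 T cell markers to at most 30.6. The light zone markers Cd83 and Cd86 summed to between 201 and 2335 CPM in dark zone sums and between 1240 and 5024 in light zone sums. Cxcr4 RNA, the dark zone marker, was low, at most 72.2 CPM in the dark zone and at most 58.3 in the light zone, where at least 1 sum had none. The 5 plasma cell markers ranged from 1320 to 4351 CPM in the dark zone and from 623 to 4116 in the light zone.

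The other members lie, on GRCm38, on chromosome 5 (Ung, 114130386 to 114139323), 8 (Neil3, 53586867 to 53639065), X (Apex2, 150519519 to 150589868), 17 (Polh, 46171355 to 46202645), 1 (Rev1, 38052786 to 38129801) and 10 (Tdg, 82629828 to 82650799). Per kilobase of merged exon, Hmces was the most abundant member, with a median level of 397 CPM per kb over the 17 sums (61.6 to 1094). Neil1 followed with 197 (63.96 to 334) and Apex1 with 120 (40.8 to 243). Polh, Tdg, Ung, Neil3 and Rev1 had median levels of 30.5, 24.3, 23.3, 18.2 and 13.1 CPM per kb. Apex2 was lowest with 4.29, over an exon length of 7783 bases that takes in long annotated transcripts across its neighbours Alas2 and Pfkfb1. The ranges of every neighbouring pair in this order overlapped. Estimated counts that were not whole, which arise where reads are shared between transcripts of several genes, were found for Apex1 in 34.8% of 425 cells with a count, for Tdg in 31.03% of 435 and for Rev1 in 33.6% of 339. Values of these members may hold reads of near-identical copies. Hmces overlaps an antisense transcript, Gm26636, Apex1 the opposite-strand gene Pip4p1, Rev1 Eif5b and Tdg Glt8d2, and no source used here states that counting used strand.

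The first comparison set dark zone against light zone. Hmces and Neil1 were higher in the dark zone in every one of 7 pairs of sums, about 3.06-fold and 2.18-fold by the means, and were the 2 members past the threshold. Apex1, the main abasic endonuclease, was lower in the dark zone in 7 of 7 pairs but missed the threshold. The other 6 members did not pass. All 9 members passed the filter on low counts in each test.

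Hmces had 870, 910, 1804 and 1432 CPM in the dark zone sums of experiment 3 at 12, 30, 46 and 60 h. In experiment 4 it had 811, 654 and 1079 CPM at 12, 30 and 46 h. The light zone sums held 175.5, 252, 651 and 563 CPM in experiment 3 and 339, 101.5 and 389 in experiment 4. Every dark zone sum was above every light zone sum, with the lowest dark zone value (654) next to the highest light zone value (651). The dark zone excess of Hmces was 1.77 ± 0.17 on the log2 scale (SE; adjusted p = 0.00246 in the quasi-likelihood test of edgeR), with rank 1 by p among 9302 genes. Pair ratios ran from 1.26 to 2.68 on the log2 scale with a pseudocount of 1 CPM.

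Neil1 had 561, 521, 609 and 624.9 CPM in the dark zone of experiment 3 at these times and 334, 465 and 483 in experiment 4. Its light zone sums held 215, 283, 368 and 229 CPM in experiment 3 and 157.3, 153.01 and 244 in experiment 4. The zones overlapped only through the highest light zone sum, 368 CPM in experiment 3 at 46 h, and the lowest dark zone sum, 334 CPM in experiment 4 at 12 h. The dark zone excess of Neil1 was 1.16 ± 0.13 (log2, SE; adjusted p = 0.00494 in edgeR), with pair ratios from 0.73 to 1.60. Of all genes tested, 0.366% passed in either direction (19 higher, 15 lower in the dark zone), against 2 of 9 members. Since the members were chosen with earlier results of these data known, this count is no test of the group. The median log2 ratio was 0.48 over the members and 0.20 over all genes.

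Apex1 had between 80.5 and 176.5 CPM in the dark zone (mean 117.7 ± 33.03, SD, n = 7) and between 148.4 and 301 in the light zone (216 ± 59.3). The zones overlapped between 148.4 and 176.5 CPM. Its log2 ratio was -0.87 ± 0.18 (edgeR adjusted p = 0.0729, rank 45). DESeq2 called it lower (adjusted p = 0.000873), as did edgeR after cells marked for both zones were left out (log2 ratio -1.14, adjusted p = 0.0108). These settings called 5.07% and 0.824% of all genes, against 0.366% in the main test. Apart from pairs by phase, given below, Apex1 passed under none of the other alternatives run for zone.

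Polh had 141.6 ± 56.8 CPM in the dark zone and 76.5 ± 40.6 in the light zone and was higher in 5 of 7 pairs (log2 ratio 0.96 ± 0.31, edgeR adjusted p = 0.311). Neil3 had 58.7 ± 33.2 against 40.5 ± 30.7 CPM (0.72 ± 0.48, adjusted p = 0.692). Ung, which makes the abasic sites, had 62.997 ± 18.4 CPM in the dark zone and 82.1 ± 30.0 in the light zone (-0.35 ± 0.25, adjusted p = 0.723). Tdg (82.1 ± 36.03 against 101.7 ± 33.5 CPM), Rev1 (57.9 ± 16.1 against 68.03 ± 38.2) and Apex2 (38.1 ± 14.02 against 31.7 ± 23.5) had log2 ratios of -0.33, -0.10 and 0.48, with edgeR adjusted p from 0.723 to 0.967. For these 6 genes the zones overlapped.

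**Figure D1:**
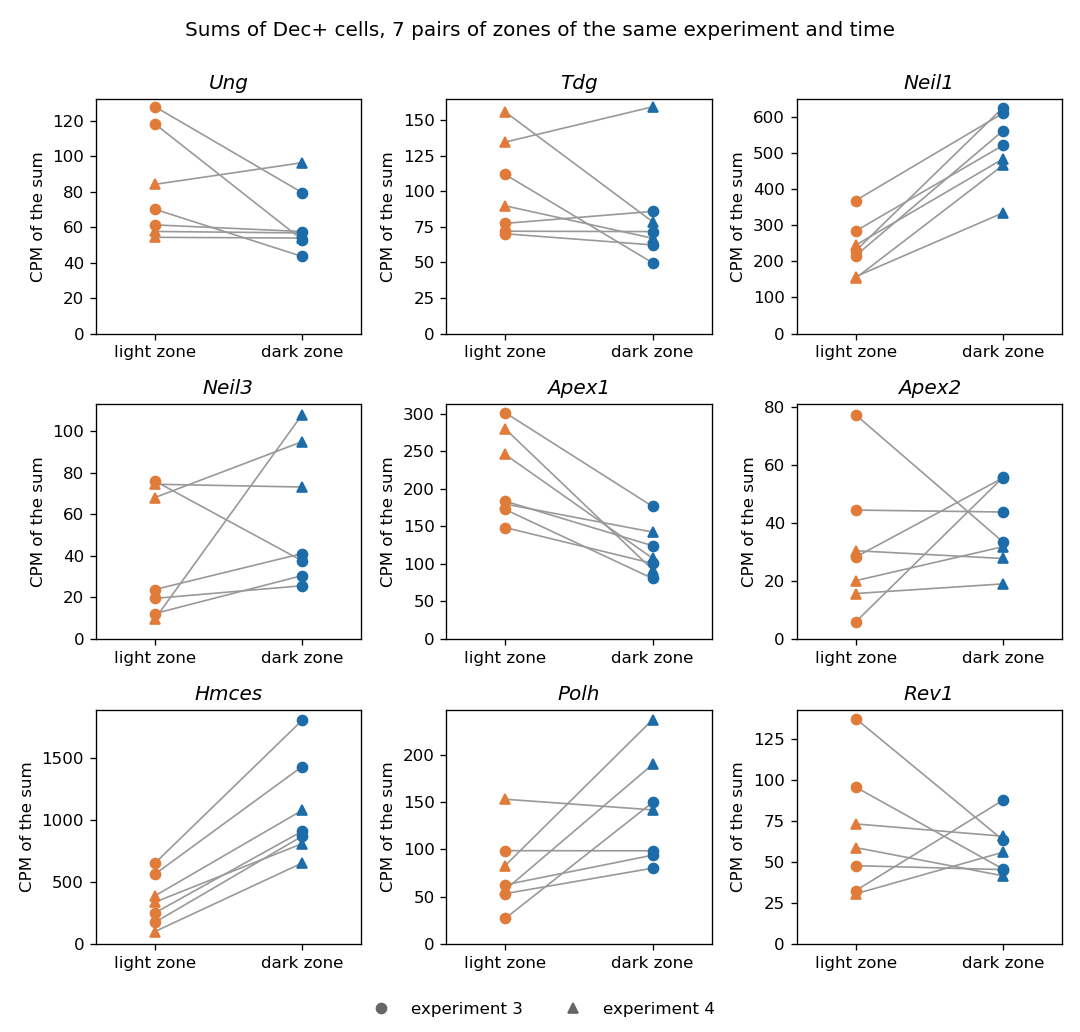
CPM of each member in sums of Dec+ cells, light zone at left and dark zone at right, with lines joining the 7 pairs of the same experiment (circle, 3; triangle, 4) and time. All 7 lines rise for Hmces and Neil1 and all 7 fall for Apex1.

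More cells held a count of Hmces in the dark zone. A higher level in each cell would also raise this share, and the shares do not tell these apart. After each cell was thinned to 100000 counts, Hmces was found in 87.9% of dark zone and 41.7% of light zone cells of experiment 3 (exact binomial 95% intervals 83.03 to 91.8 and 31.7 to 52.2, counting error only; 15 and 4 shallower cells left out). In experiment 4 it was found in 85.02% and 48.6%. Without thinning the shares were 87.9 and 43% in experiment 3 and 86.2 and 48.6% in experiment 4. Neil1 was found in 90.1% and 69.8% of thinned cells in experiment 3 and in 86.6% and 62.9% in experiment 4. Apex1 went the other way, with 33.6% of dark zone and 51.04% of light zone cells in experiment 3 and 36.8% and 65.7% in experiment 4.

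The zones differed in cell cycle phase, as the authors' cell table gives it. G2M cells made up 31.2% and 34.6% of dark zone cells and 18% and 25.7% of light zone cells in experiments 3 and 4. Within phases, Hmces was higher in the dark zone in 6 of 6 pairs of experiment and phase, with log2 ratios from 0.83 to 2.82, and Neil1 in 6 of 6, from 1.14 to 1.405. Apex1 was lower in 6 of 6 pairs, from -1.49 to -0.86. With these 6 pairs in place of experiment and time, Apex1 passed the threshold (log2 ratio -1.13, edgeR adjusted p = 0.00479), as did 1.79% of all genes. Without the pair as a block, Hmces (adjusted p = 0.0861) and Neil1 (0.0647) no longer passed. Without experiment 3 neither passed (edgeR adjusted p = 0.778 for both) at log2 ratios of 1.79 and 1.21, and without experiment 4 Neil1 did not (0.264).

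Experiment 5 and experiment 1 took no part in that test. In experiment 5, Hmces had 825 CPM in dark zone and 260 in light zone WT cells, 451 and 185.7 in KO cells, and 841 and 264 in TA cells. The dark zone value was higher on 4 of 4 plates in each genotype. Plates are technical repeats, and the share of all genes higher on 4 of 4 plates was not determined. Neil1 had 340 and 184.3 CPM in WT, 267 and 194 in KO and 382 and 163.8 in TA cells, again higher in the dark zone on 4 of 4 plates. Polh had 257 and 100.5 CPM in WT, 136.002 and 52.1 in KO and 260 and 104.4 in TA cells, higher in the dark zone on 4, 3 and 4 plates. In the same order, Apex2 was higher in the dark zone on 4, 4 and 2 plates and Tdg on 4, 1 and 2. The WT log2 ratio of Tdg was only 0.09. Apex1 did not keep one direction, with 58.5 CPM in the dark zone and 80.5 in the light zone of WT (dark zone higher on 2 of 4 plates), 13.7 and 44.7 in KO (0 of 4) and 52.6 and 29.8 in TA (4 of 4). Genes with a log2 ratio past 1 either way made up 27.7% of genes at 20 CPM or more in WT, 24.9% in KO and 41% in TA, against 3 of 9, 4 of 8 and 5 of 9 members at that level. These ratios have no test, since each genotype had 1 experiment, and the TA light zone held 22 cells. In experiment 1 the 42 dark zone cells of 30 h had 1064 CPM of Hmces and 602 of Neil1, and the Dec+ light zone cells of 12 h had 151.4 and 120, at times that differ.

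Other genes of these pathways were given by lists. Of 17 genes of base excision, 16 were tested and none passed between zones in edgeR, with a median log2 ratio of 0.26. Of 13 genes of translesion synthesis all were tested and none passed, with a median of 0.39. Of 9 genes for AID and its cofactors 1 rose in the dark zone, with a list median of 0.09. Over the 17 sums, after the mean of each experiment was subtracted, the 5 genes most like Hmces among 3658 genes were Ada (Pearson r 0.94), Pkig (0.93), Anxa2 (0.92), Neil1 (0.90) and H2afv (0.89). Those most like Neil1 were Pkig (0.90), Hmces (0.90), Gcsam (0.90), Cmpk1 (0.89) and Rgcc (0.89). Polh followed Neil1 with r = 0.87 (rank 7), while Apex1 had r = -0.77 to Neil1 and -0.74 to Hmces. The sums share zones, libraries and depth, so that these values describe a common pattern across sums and carry no test.

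The second comparison set 30, 46 and 60 h together against 12 h within each zone. No member passed in either zone. The highest values of Hmces came late in both zones, but the experiments did not have the same course.

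In the dark zone Hmces had 870 and 811 CPM at 12 h in experiments 3 and 4, 910 and 654 at 30 h, 1804 and 1079 at 46 h, and 1432 and 1133 at 60 h. The log2 difference of the later times from 12 h was 0.52 ± 0.36 (SE, edgeR adjusted p = 1). In the light zone, where experiments 3 and 4 had 175.5 and 339 CPM at 12 h and 651 and 389 at 46 h, it was 0.64 ± 0.35 (adjusted p = 0.591). Without experiment 3 the light zone difference was -0.23. The light zone sum of experiment 4 at 60 h held 5 cells and was left out, so that this time rests on 1 sum, assumed to vary like the others.

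Neil1 had log2 differences of 0.40 ± 0.25 in the dark zone and 0.53 ± 0.24 in the light zone (edgeR adjusted p = 1 and 0.496). Neil3 had 1.71 ± 0.59 in the light zone (adjusted p = 0.368; DESeq2 0.0436), from 24.7, 19.5 and 9.45 CPM at 12 h in experiments 1, 3 and 4, and 0.01 in the dark zone. Its 12 h values overlapped the later ones, which ran from 12.2 to 76.02 CPM. Tdg had 0.69 ± 0.35 in the dark zone and -0.32 ± 0.32 in the light zone, and the difference between the zones was 1.01 ± 0.48 (adjusted p = 0.949). For Apex1 the values were -0.53 ± 0.30 and -0.51 ± 0.30. Polh, Ung, Rev1 and Apex2 had dark zone differences of 0.76, 0.31, 0.19 and 0.27, all with edgeR adjusted p = 1, and light zone differences of -0.28, -0.20, -0.00057 and -0.15, with adjusted p of at least 0.979.

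Of 11662 genes, 0% passed in the dark zone, 0.00857% (1 gene, lower) in the light zone and 0% for the difference between zones, so that a count of 0 of 9 members equals the background. At an unadjusted p under 0.05 there were 392, 1151 and 595 genes, and DESeq2 called 0.883%, 4.86% and 263 genes. The median log2 difference of all genes was 0.0019 in the dark zone and -0.31 in the light zone, and that of the members 0.31 and -0.15.

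**Figure D2:**
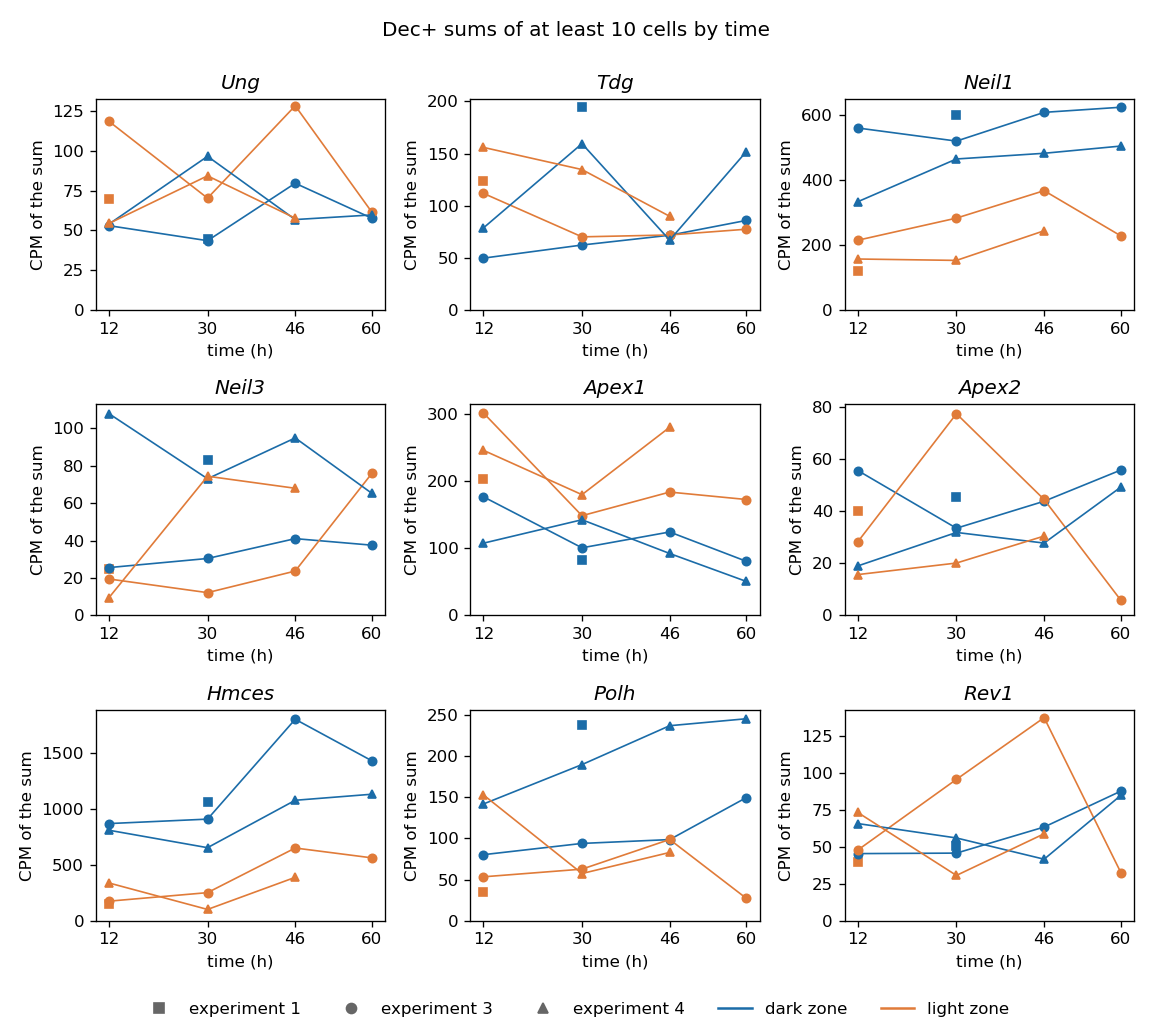
CPM of each member against time in h, for Dec+ sums of at least 10 cells in the dark zone (blue) and light zone (orange) of experiments 1 (squares), 3 (circles) and 4 (triangles). Hmces and Neil1 stay higher in the dark zone at each time within an experiment, and no member passed the test of later times against 12 h.

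The third comparison set the phases S and G2M against G1 in dark zone cells. Polh and Neil3 were higher in G2M than in G1, past the threshold, and almost no G1 cell held a count of Neil3. Hmces was highest in G2M in all 3 experiments without passing the threshold, and Neil1 had similar values in the 3 phases. Ung was highest in S, but it belongs to the S phase gene list that Seurat supplies, so its values by phase are given without a test.

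Polh had 30.3 CPM in G1, 70.4 in S and 232 in G2M in experiment 3, and 51.9, 119.4 and 397 in experiment 4. In experiment 1 it had 206 CPM in S and 275 in G2M, and its 4 G1 cells were too few for a sum. The order G1, S, G2M was the same in both experiments with all phases. G2M exceeded G1 by 2.83 ± 0.36 (log2, SE; adjusted p = 0.0203 in edgeR), and S exceeded G1 by 1.44 ± 0.35 (adjusted p = 0.182).

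In experiment 3, Neil3 had a count in 0 of 89 G1 cells, which allows a share of up to 3.37% at 3 counts of 89 (exact binomial upper limit 4.06%), and in 39 of 77 G2M cells (50.6%). For experiment 4 the numbers were 2 of 76 (G1) and 49 of 88 (G2M, 55.7%). S cells lay between, with 29.6% and 37.8%. In experiment 1 the shares were 52.9% of 17 S cells and 66.7% of 21 G2M cells, but the S sum, at 106.3 CPM, was above the G2M sum, at 76.4. In CPM, G2M sums of experiments 3 and 4 held 80.7 and 153.4, S sums 25.9 and 77.3, and G1 sums 0 and 1.76. Against a set floor of 3 counts in the G1 sum, the ratio of G2M to G1 was 468-fold in experiment 3. In experiment 4 it was 87.3-fold from the counts themselves. The 2 G1 cells with a count in experiment 4 held 34 counts, so 468-fold is no lower bound. Reads without molecular identifiers are not independent molecules, so the limits given above cover counting error only. The edgeR test gave adjusted p = 0.0484 for G2M and 0.0784 for S, and its fitted log2 ratio depends on the prior count. In experiment 5, 0 of 38 WT, 0 of 48 KO and 0 of 23 TA dark zone G1 cells had a count, against 12 of 24, 7 of 12 and 16 of 32 G2M cells. Light zone G1 cells with a count numbered 0 of 70, 0 of 46 and 1 of 29 in experiments 1, 3 and 4, and that 1 cell held 241 counts.

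Hmces had 991 CPM in G1, 1251 in S and 1759 in G2M in experiment 3, and 549, 767 and 1288 in experiment 4. In experiment 1 it had 504 CPM in S and 1434 in G2M. The log2 ratio of G2M to G1 was 1.28 ± 0.29 (edgeR adjusted p = 0.150) and was called by DESeq2 (adjusted p = 0.00460) and by edgeR without experiment 1 (adjusted p = 0.0123). Neil1 had 652, 508 and 597 CPM in G1, S and G2M of experiment 3 and 369, 428 and 520 of experiment 4 (G2M against G1, log2 ratio 0.26 ± 0.21, adjusted p = 0.791). Its phases differed by less than its zones, without a test of that contrast.

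Ung had 19.4, 147.8 and 8.24 CPM in G1, S and G2M in experiment 3 and 21.6, 149.7 and 16.99 in experiment 4. Light zone cells had 55.3, 179.03 and 15.97 CPM in experiment 3 and 25.1, 158.8 and 1.14 in experiment 4. Apex1 was highest in S in both experiments (165.4 and 143.03 CPM, against 89.4 and 100.5 in G1), with a log2 ratio of S to G1 of 0.63 ± 0.33 (edgeR adjusted p = 0.567). Tdg had a log2 ratio of G2M to G1 of 0.81 ± 0.35 (adjusted p = 0.522), and Rev1 one of 0.56 ± 0.44 (0.777). Apex2 had 0.90 ± 0.60 for S (0.676) and -0.25 ± 0.56 for G2M (0.971).

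Of 10702 genes, 0.878% passed for S against G1 and 1.21% for G2M against G1, compared with 0 and 2 of the 8 members other than Ung. These counts are no test of the group either, given how the members were chosen. How the phases were called is not given in the sources used here, but the authors' cell table carries S and G2M scores, so that phase may not be independent of the RNA tested. Among base excision genes Lig1, the ligase that seals replicated and repaired strands, rose in S (log2 ratio 2.83 ± 0.26, edgeR adjusted p = 0.0167) and in G2M (1.99 ± 0.25, 0.0188). Fen1 and Pcna also passed in both phases and Rpa2, of the list for AID and its cofactors, in S, but all 3 belong to the S phase list of Seurat. No translesion synthesis gene passed in edgeR, with medians of 0.29 in S and 0.49 in G2M. The medians of all genes tested were 0.065 and 0.087. The result rests on few sums: without experiment 3 or without the block no member passed, and without experiment 4 Neil3 alone did. In light zone cells the log2 ratios of G2M to G1 were 1.46 for Polh (edgeR adjusted p = 0.303), 6.06 for Neil3 (0.340) and 0.28 for Hmces (0.877). Hmces had 256, 259 and 310 CPM in light zone G1 sums of experiments 1, 3 and 4 and 180.6, 481 and 455 in G2M sums, so that experiment 1 went against the other two. The difference between zones in these phase ratios was not tested.

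**Figure D3:**
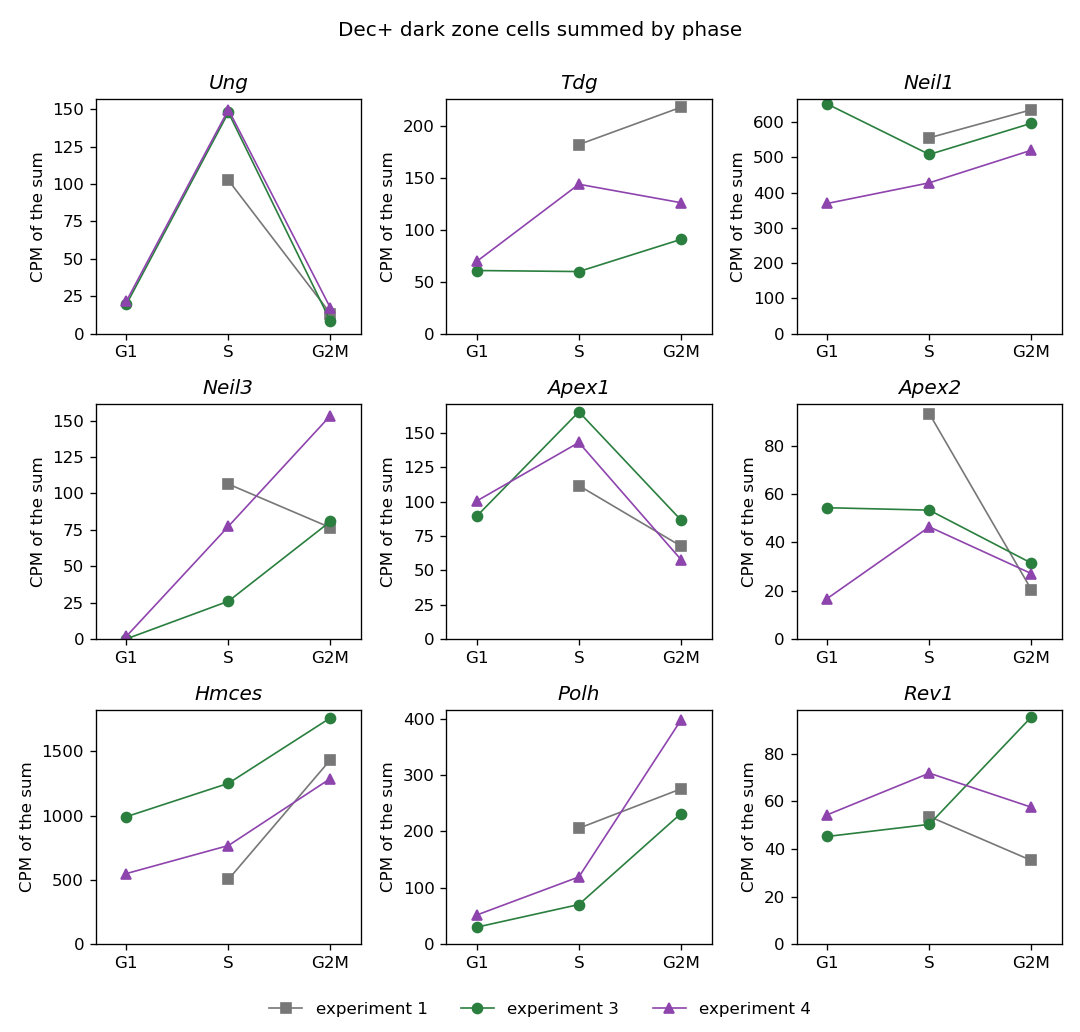
CPM of each member in Dec+ dark zone cells summed by phase (G1, S, G2M), 1 line per experiment; the G1 sum of experiment 1 is left out at 4 cells. Polh, Neil3 and Hmces reach their highest value in G2M of experiments 3 and 4, and Ung and Apex1 in S.

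The fourth comparison was of Dec status in the light zone at 12 h, with both kinds of cell from the same 3 plates of experiment 1. Hmces, Neil1 and Polh were lower in Dec+ cells on all 3 plates, and Tdg and Ung were higher on all 3. The share of all genes with the same direction on all 3 plates was not determined. One experiment gives no test, and plates are technical repeats. Hmces had 239, 71.6 and 100.8 CPM in Dec+ cells of the 3 plates and 483, 408.5 and 264 in Dec- cells. The highest Dec+ plate lay below the lowest Dec- plate, and the share of all genes with no such overlap was not determined. Over the plates Dec+ cells had 151.4 CPM and Dec- cells 404, a log2 ratio of -1.41.

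Neil1 had 64.04, 154.6 and 169.05 CPM in Dec+ and 348, 278 and 182.97 in Dec- cells (120 against 282 over plates, log2 ratio -1.23). The third plate gave a ratio of -0.11. Polh had 39.5, 32.5 and 30.9 CPM in Dec+ and 153.8, 83.9 and 58.4 in Dec- cells, a log2 ratio of -1.53. With the mean over cells of each cell's CPM in place of the sum, the Polh ratio was -0.22, that of Hmces -0.69 and that of Neil1 -0.86. Cells with a Polh count made up 16.9% of Dec+ and 15% of Dec- cells after thinning, so the Polh sums rest on few cells. Tdg had 123.7, 122.7 and 124.4 CPM in Dec+ and 38.8, 54.7 and 89.5 in Dec- cells, a log2 ratio of 1.11 that was 1.12 by the mean over cells.

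Ung, Apex1, Apex2, Neil3 and Rev1 had log2 ratios between -0.31 and 0.45, and those of Ung by plate ran from 0.042 to 1.00. That of Apex2 was 0.16 from sums and -0.89 by the mean over cells. A log2 ratio past 1 either way was found for 31.1% of genes at 20 CPM or more, compared with 4 of 9 members. S cells made up 43.98% of Dec+ and 31.2% of Dec- cells and G2M cells 13.9% and 10.0%, and the part of phase in these ratios was not tested. Within G1, Hmces had 256 CPM in Dec+ and 362 in Dec- cells by sum, but 196.5 and 180.3 by the mean over cells. Within S its sums were 74.5 and 484 CPM. Ung sums were 30.6 in Dec+ and 6.60 in Dec- cells within G1. Within S they turned, with 108.7 and 153.4 CPM by sum but 132.5 and 105.2 by the mean over cells. After thinning, cells with a Hmces count made up 42.2% of Dec+ (34.6 to 50.1, exact binomial interval) and 63.8% of Dec- cells (52.2 to 74.2).

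**Figure D4:**
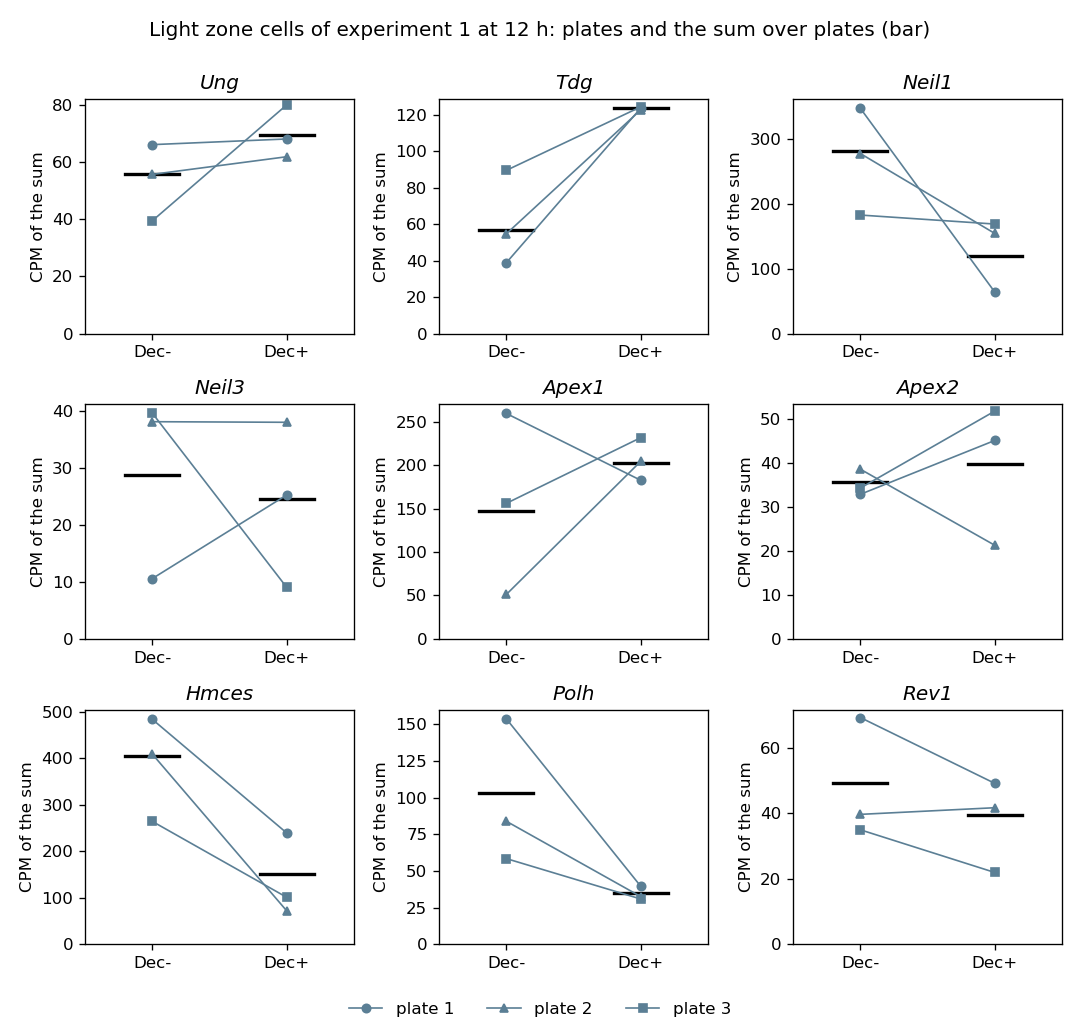
CPM of each member by Dec status (light zone, 12 h, experiment 1), 1 line per plate, with black bars for the sum over the 3 plates. All 3 lines fall from Dec- to Dec+ for Hmces, Neil1 and Polh, and all 3 rise for Tdg and Ung.

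The fifth comparison set the genotypes of experiment 5 side by side. In the dark zone, KO cells had lower values than WT cells on 4 of 4 plates for Hmces, Polh, Neil1, Neil3, Apex1 and Ung. The share of all genes lower on 4 of 4 plates was not determined. The median log2 ratio of KO to WT was -0.16 over all genes at 20 CPM or more in either genotype. TA sums lay within 0.35 of WT on the log2 scale for all members but Ung, with plates on both sides of WT. With 1 experiment there is no test. The phases also differed: S cells made up 24.4% of WT, 3.23% of KO and 45.5% of TA dark zone cells, and G1 cells 46.3, 77.4 and 22.8%. The median percent of mitochondrial counts was 6.93 in WT, 10.8 in KO and 5.94 in TA dark zone cells, and its part in the differences was not tested.

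Hmces had 745, 786, 708 and 1060 CPM on the 4 plates of WT dark zone cells and 485, 483, 398 and 460 on those of KO cells. No KO plate reached the lowest WT plate. The sums were 825 and 451 CPM, a log2 ratio of -0.87. TA plates ranged from 521 to 1031 CPM, with a sum of 841, and overlapped those of WT. The highest KO plate (485) lay below the lowest TA plate (521). The share of all genes whose plates do not overlap was not determined for KO against WT or TA. After thinning, 79.4% of WT, 69.6% of KO and 79.6% of TA dark zone cells had a count of Hmces. Within G1 the sums were 471 CPM in WT and 428 in KO cells, and within G2M 1265 and 557 from 24 and 12 cells.

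Polh had 257 CPM in WT and 136.002 in KO cells (log2 ratio -0.92), with 118.7 and 56.1 within G1 and 444 and 468 within G2M. Neil3 had 80.8 and 28.96 CPM (log2 ratio -1.45), with 180.6 and 146.02 within G2M. Neil1 had 340 and 267 CPM (-0.34), and 449 and 262 within G1. Apex1 had 58.5 and 13.7 CPM (-2.01), with plate log2 ratios from -4.55 to -0.99, and was found in 22.1% and 10.7% of thinned cells. Ung had 32.0 CPM in WT, 10.4 in KO and 63.7 in TA cells. Within S it had 77.5 CPM in WT and 132.2 in TA cells, and the KO sum of S held 2 cells. The part of phase in these values was not tested.

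Tdg, Apex2 and Rev1 had log2 ratios of -0.89, -0.84 and -0.20 in KO against WT, with plates on both sides of 0. Log2 ratios past 1 either way were found for 27.5% of genes at 20 CPM or more in KO against WT dark zone cells, compared with 3 of 9 members, and for 18.4% in TA against WT, compared with 0 of 9. In the light zone 34.8% of genes passed that size in KO against WT, and 1 of 8 members at that level did, namely Ung (11.1 against 27.7 CPM). Light zone Hmces had 260 CPM in WT, 185.7 in KO and 264 in TA cells, and Neil1 184.3, 194 and 163.8.

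**Figure D5:**
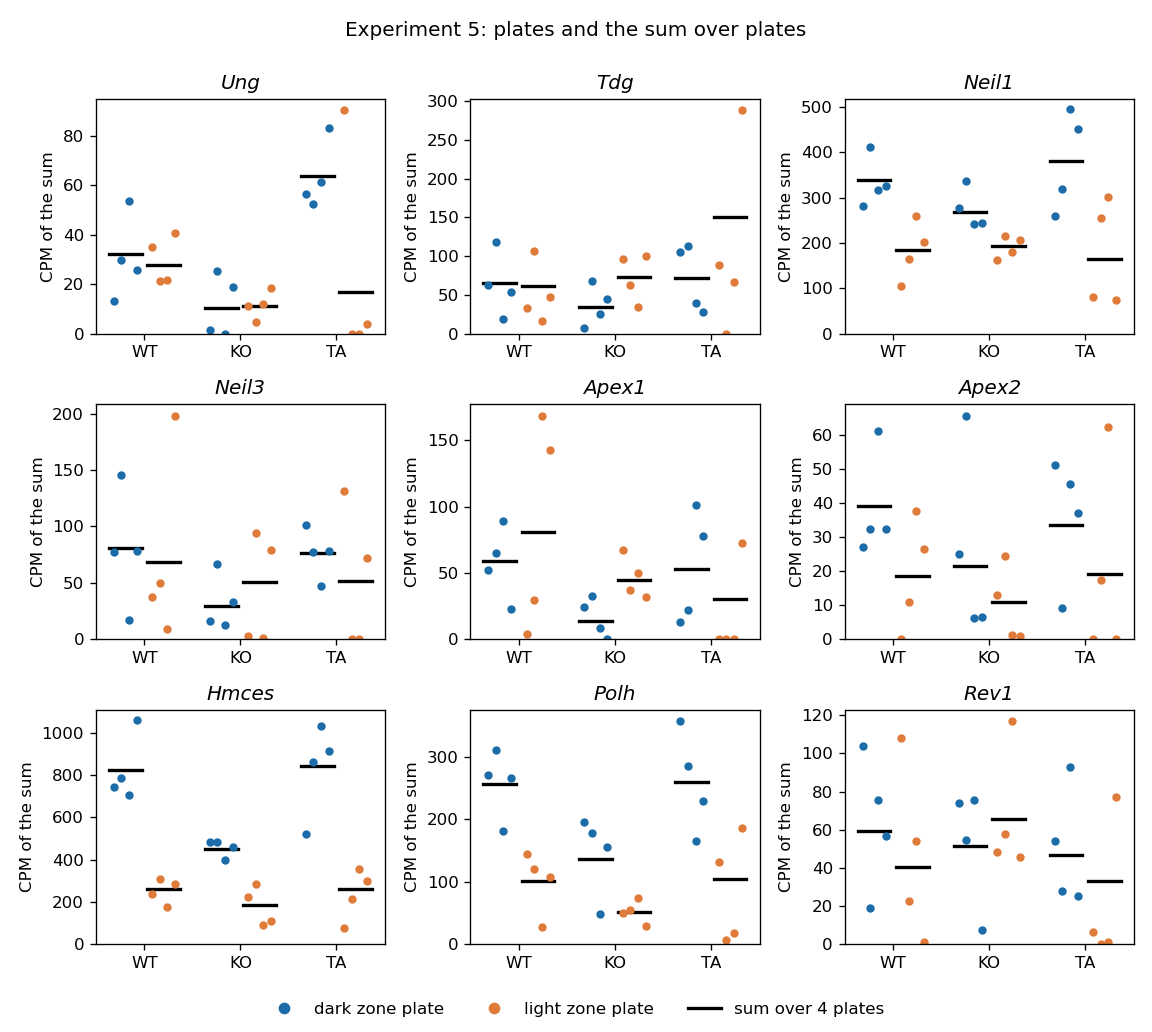
CPM of each member in WT, KO and TA cells of experiment 5, dark zone (blue) and light zone (orange); points are the 4 plates and black bars the sum over plates. Dark zone plates of KO lie below all dark zone plates of WT for Hmces, and the dark zone bar is above the light zone bar in each genotype for Hmces, Neil1 and Polh.

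Last, the 40 PB wells of experiment 1 were set beside the 42 other dark zone wells of 30 h, from the tables per plate and without a test. Hmces had 846 CPM in PB wells and 1022 in the others, and Neil1 567 and 579. Tdg had 190.6 and 187.4 CPM, Rev1 44.4 and 48.5, Ung 30.5 and 42.6 and Apex2 27.8 and 43.5. Polh had 135.6 and 228 CPM. Neil3 had 18.9 and 80.01 CPM, with a count in 9 of 40 and 23 of 42 wells, and Apex1 had 19.1 and 79.6 CPM, with a count in 13 and 25 wells. PB wells were not filtered and held between 8431 and 4450440 counts.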

How the data were processed

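Expected counts for each gene in each cell, not normalized, were taken from the authors' deposited combined tables, per the file headers. The submitters' processing notes list mm10, Seurat 3.1.4, RSEM 1.3.1 and STAR 2.6. The authors' deposited cell tables gave the phase, S and G2M scores, the percent of mitochondrial counts and sort intensities, of which phase and percent were used. Counts were summed over the cells of a group and rounded, and sums of at least 10 cells were used. After filterByExpr and TMM scaling, edgeR 4.0.16 (quasi-likelihood test, robust option) was run in R 4.3.3, with Benjamini-Hochberg adjustment over all genes and a threshold of 0.05. DESeq2 1.42.0 and limma 3.58.1 served as alternatives. The robust option was chosen after fits with and without it were seen. The test was also run on counts simulated from its own fitted means and spread, drawn independently for each sum. The simulation could not check the effect of pairs that share an experiment or of reads without molecular identifiers. The zone test had 14 sums and the pair (same experiment and time, from the labels) as block, so its replicates come from 2 experiments alone. Deviations of paired sums correlated across genes at r from 0.012 to 0.242 (median 0.103). The time and phase tests had 17 and 8 sums and the experiment as block. CPM used the total of the sum. Experiment 2 was not analysed here, since its columns matched no single well (255 columns of no sample). Members, lists and motifs were chosen with earlier results of these data known. All members are named, and listed genes where they passed. The values of 1 gene of the list for AID and its cofactors are not reported here.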

Additional observations from a re-analysis of the deposited data

Results flagged for a closer look

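Of 27 sets of 7 values (dark zone CPM, light zone CPM and log2 ratio of each member), 1 held a value far from the others, where chance alone flags about 5% of sets. Tdg had 159.5 CPM in the dark zone sum of experiment 4 at 30 h, and the next highest of the 7 dark zone sums had 85.9 CPM. The light zone sum of the same experiment and time had 134.7 CPM.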

How the results depend on the processing

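The zone log2 ratios of Hmces and Neil1 had the same sign under all alternatives run. The main edgeR tests called 2 members for zone, 0 for time, 0 for S and 2 for G2M. DESeq2 called 5.07% of genes for zone, 0.883% for dark zone time, 4.86% (and 1 member) for light zone time, 6.26% (and 2 members) for S and 5.73% for G2M. Limma on the mean of the cells' CPM called 0.677% for zone, 0.00857% for dark zone time, 3.78% (and 2 members) for S and 3.29% for G2M. Without the replicate block (pair or experiment) edgeR called 0.0108% of genes and 0 members for zone, 0 genes for light zone time, 0.542% for S, and 0.729% and 0 members for G2M. Sums of at least 20 cells gave 0.0317% for zone, 0.170% for light zone time, 3.19% (and 2 members) for S and 2.74% for G2M. For zone, tables per plate gave 0.142%, cells of 1 zone flag 0.824% and pairs by phase 1.79%. For G2M, RLE scaling gave 1 member, no filter 1 and light zone cells 0. Without each experiment in turn, zone gave 0 to 1 members and 0 to 0.0320% of genes, light zone time 0 to 0.0173%, S 0 to 2 members and 0 to 3.39% (0.164% without experiment 4), and G2M 0 to 3 members and 0 to 2.91% (0.310% without experiment 4). Fewer sums entered the fits without an experiment; otherwise the cause was not tested. The edgeR fit without the robust option, added after seeing the data, called 0.323% of genes and the same number of members for zone.

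Signs turned only in values that did not pass. For zone, Rev1 turned to 0.20 with sums of at least 20 cells, and with pairs by phase Rev1 turned to 0.035 and Neil3 to -0.24. For light zone time Rev1 turned to 0.043 with DESeq2, 0.043 with RLE, 0.041 with no filter and 0.14 without the block. For dark zone time Neil3 turned to -0.028 and Rev1 to -0.022 by cell means, and Neil3 to -0.045 without the block. For S, Neil1 turned to 0.076 without the block. In light zone cells Hmces turned to -1.05, Apex2 to -0.53 and Rev1 to -0.74 for S, and Neil1 to -0.028 and Rev1 to -0.57 for G2M.

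Without experiment 1, dark zone Neil3 over time was -0.012. Without experiment 3, Ung was 0.044 and Rev1 0.055 for zone, Neil3 -0.50 and Rev1 -0.023 for dark zone time, Ung 0.098, Hmces -0.23 and Apex2 0.58 for light zone time, Neil1 0.22 for S and Apex2 0.51 for G2M. Without experiment 4, Apex2 was -0.32 for dark zone time, Apex2 0.013, Polh 0.54 and Rev1 0.84 for light zone time, Tdg -0.029 for S, and Neil1 -0.11 and Apex1 0.039 for G2M.

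Members past a log2 ratio of 1 numbered 4 for Dec status and 1 by cell means. Leaving out each plate gave 3 to 5 for KO against WT in the dark zone, 0 to 1 for TA, 1 to 5 for KO in the light zone and 2 to 4 for TA there. With all plates, 42.6% of genes at 20 CPM or more passed that size for TA in the light zone, compared with 2 of 8 members. The shares of all genes by cell means and without each plate were not determined.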
